A study of Mus musculus with 6 samples.

Results

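The genes described here are 10 homeobox genes of the Hoxa and Hoxb clusters, *Hoxa3*, *Hoxa5*, *Hoxa7*, *Hoxa9*, *Hoxa10*, *Hoxb2*, *Hoxb3*, *Hoxb4*, *Hoxb5* and *Hoxb6*, measured on mouse microarrays. They were taken by name, as every probe that carries one of these gene names and is not a control probe, which gave 10 of 37074 gene names and 18 of 56605 probes. Total RNA came from LSK cells, the lineage marker-negative, Sca-1+, c-Kit+ fraction of bone marrow that holds haematopoietic stem and progenitor cells, of C57BL/6 mice between postnatal days 6 and 8. The control group was 3 samples of genotype Atg5w/w;Vav-iCre+, and the *Atg5*f/f;Vav group was 3 samples of genotype Atg5f/f;Vav-iCre+. Both groups carried the Cre transgene, which acts in haematopoietic cells from fetal life. By labelled genotype, only the floxed alleles of *Atg5*, a gene needed to build autophagosomes, distinguished them. The sources do not say whether a sample was 1 mouse or a pool, so p-values measure the spread between these samples. Each sample was hybridised to 1 single-colour Agilent array.

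Hox genes encode transcription factors that bind DNA through a homeodomain and are laid out in clusters whose order along the chromosome follows their order of use along the body axis. In bone marrow the Hoxa and Hoxb genes are most active in stem and early progenitor cells and are turned down as cells mature. HOXA9 is known for its role in stem cell renewal and in leukaemia, HOXB4 for expanding stem cells when supplied in excess, and both act with TALE cofactors such as MEIS1 and PBX proteins.

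Values are log2 signals relative to the 75th percentile of the array, so that 0 marks a probe as bright as that percentile and a step of 1 marks a doubling. Levels are compared between arrays for 1 probe, since the signals of different probes cannot be ranked as amounts of RNA. The sum of a gene list is a sum of probe signals, and the gene said to lead it is the one whose probe had the highest mean log2 signal over the 6 arrays. The feature extraction software marks a spot as well above background or not, and 58.2%, 57.6% and 58.1% of probes were so marked on control replicates 1, 2 and 3 against 54.8%, 53.9% and 51.6% on *Atg5*f/f;Vav replicates 1, 2 and 3. Of the 18 Hox probes, 18, 18 and 17 passed that mark in the controls and 16, 16 and 11 in *Atg5*f/f;Vav. *Atg5*f/f;Vav replicate 3 therefore stood apart from the other arrays in detection, and results are given with and without it where it matters. All 6 arrays lay on 1 slide and were read in 1 scan, with the controls in its first row and the *Atg5*f/f;Vav samples in its second, so that row and genotype cannot be told apart.

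The labels were set against 2 kinds of marker first. The only *Atg5* probe, at base 2251 of the mRNA record (chr10:44083997-44084056, mm9), read 1.10, 0.93 and 1.06 in the controls and 1.46, 1.51 and 1.74 in *Atg5*f/f;Vav, higher by 0.54 (SE 0.12, limma adjusted p = 0.0209). The deletion takes out an exon near the start of the gene while the probe lies far downstream, so this probe checks nothing about the genotype. The gate markers were present on every array. *Kit*, the receptor behind c-Kit, read 4.01, 4.12 and 3.93 in the controls and 3.82, 3.61 and 3.50 in *Atg5*f/f;Vav (adjusted p = 0.0563). *Ly6a*, which encodes Sca-1, read 1.56, 1.31 and 1.53 against 2.89, 2.91 and 3.30, higher by 1.57 in *Atg5*f/f;Vav (adjusted p = 0.00623). In bulk RNA of a gate, fewer cells of a type and less RNA per cell cannot be told apart.

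Where a gene had more than 1 probe, the probes differ in what they read, and those of *Hoxa9*, *Hoxb3* (probes 1 and 2) and *Hoxb2* are shown because the results turn on them. Sequences are those of the array design, 5′ to 3′ on the strand the probe detects, with positions on mm9. Probes are numbered by position along the chromosome. *Hoxa9* probe 1 (chr6:52174227-52174286, minus strand) runs through the end of the reading frame into the sequence after it, with the stop codon in capitals. *Hoxa9* probe 2 (chr6:52174477-52175581) covers 60 bases of mRNA over 1105 bases of chromosome, so it bridges a splice junction and reads spliced RNA. *Hoxa9* probe 3 (chr6:52178314-52178373) lies upstream of both, in another transcript model of the gene, and its first 30 bases are given.
Hoxa9 probe 1: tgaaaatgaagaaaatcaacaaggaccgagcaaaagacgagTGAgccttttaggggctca
Hoxa9 probe 2: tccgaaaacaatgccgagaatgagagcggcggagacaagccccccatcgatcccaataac
Hoxa9 probe 3: cagctgcttaatactcagtacctaattctt

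*Hoxb3* probe 1 (chr11:96202427-96205434, plus strand) also bridges an intron, with 60 bases of mRNA over 3008 bases. *Hoxb3* probe 2 (chr11:96202860-96202919) lies within the stretch that probe 1 skips. Both are given by their first 30 bases.
Hoxb3 probe 1: atattatgtctgcctgttctcccctcgtcg
Hoxb3 probe 2: ttttaaagtcttggaagatggcctatcctc

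*Hoxb2* probe 2 (chr11:96215122-96215181) reads the plus strand, that of the gene. *Hoxb2* probe 1 (chr11:96211860-96211919) carries the same gene name but reads the minus strand, so it detects RNA antisense to *Hoxb2* in direction. It was the only probe of the 18 on the strand opposite to its gene. The first 30 bases of each are given.
Hoxb2 probe 1: gtaatgtattctatggtgaggcacctatga
Hoxb2 probe 2: tggtaaaactccttccaacgaaatctcagg

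The Hox genes were lower in *Atg5*f/f;Vav LSK cells. Of the 18 probes, 17 were bright enough to test, and 12 of them were lower and 0 higher at an adjusted p under 0.05 (limma, Benjamini-Hochberg over 32074 probes), against 17.1% of all probes tested that were lower and 17.3% that were higher. With each gene read from its brightest probe on its own strand, 7 of the 10 genes fell, *Hoxa3*, *Hoxa5*, *Hoxa9*, *Hoxa10*, *Hoxb2*, *Hoxb3* and *Hoxb6*, against 15.3% of 20765 genes tested that were lower and 18.7% that were higher. *Hoxb6* entered the test through the controls alone, being well above background on 3 of them and on 0 *Atg5*f/f;Vav arrays, so its difference was in part a condition of being tested. Among probes detected on at least 1 array of each group, 11 of 16 Hox probes and 6 of 9 Hox genes were lower, against 15.6% of all such probes and 14% of all such genes. The median log2 fold change over the 10 genes was -1.25 (-0.72 under normexp background correction), against -0.03 over all genes tested. In 15 of the 18 probes every *Atg5*f/f;Vav array lay below every control array, which 28.3% of all probes tested did, while 27.1% lay the other way round. All 10 genes did so on the probe that stands for them, against 26.3% of all genes tested. Among features detected in both groups the counts were 14 of 16 probes and 9 of 9 genes, against 26.9% and 25% of all such probes and genes. With the 75th percentile taken over detected probes alone, 13 Hox probes were lower, against 31.5% of all probes tested.

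The calls of the main setting, though not the size of the difference, rested mostly on control replicates 1 and 2. Without control replicate 1, or without control replicate 2, 0 of the 17 Hox probes passed the adjusted threshold in limma (11 had an unadjusted p under 0.05 in each case, against 18.5% and 18.4% of all probes that were lower at that p), and the calls over all probes dropped from 11024 to 330 and 251. With any other single array left out, 11 or 12 of the 17 Hox probes were lower, against 11.9% to 16.7% of all probes tested. Without control replicate 3, *Hoxa3* probe 3 (adjusted p = 0.0523) and *Hoxb2* probe 2 (adjusted p = 0.0681) lost their calls, and 6 Hox genes were lower. All 17 log2 fold changes remained below 0 whichever array was left out, and the median over the 10 genes was -1.22 without control replicate 1 and -1.24 without control replicate 2. Without *Atg5*f/f;Vav replicate 3 the median over the 10 genes was -0.93 and 7 genes passed.

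**Figure D1:**
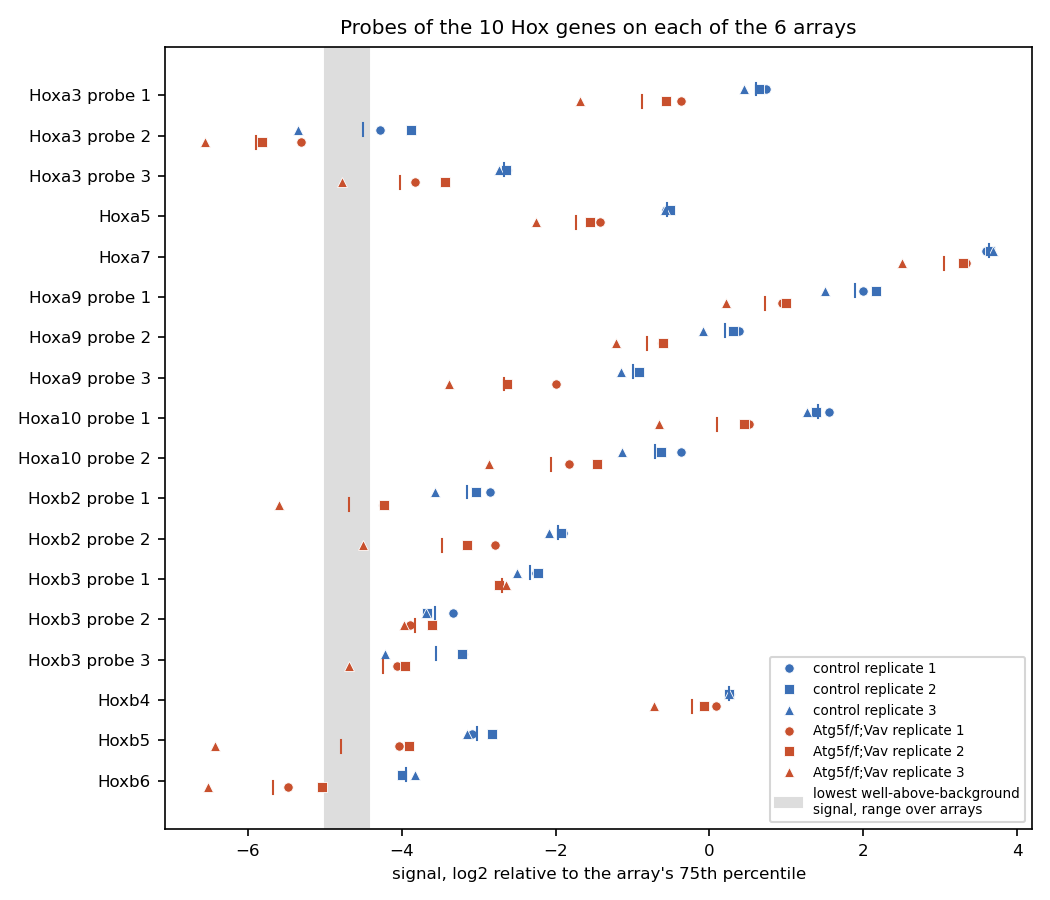
Signal of each of the 18 probes on each array, as log2 relative to the array's 75th percentile, with controls in blue, *Atg5*f/f;Vav in orange, short vertical lines at the group means, and a grey band for the lowest signal marked well above background on each array. In 15 probes the orange points lie wholly to the left of the blue ones, and *Atg5*f/f;Vav replicate 3 is the lowest array in 17 of the 18.

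The spread lay mainly within the *Atg5*f/f;Vav group. *Atg5*f/f;Vav replicate 3 was the lowest of the 6 arrays for 17 of the 18 Hox probes, and *Hoxb3* probe 1 was the exception. The 3 controls stayed close together for most probes.

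*Hoxa9*, the member with the best-known part in stem cell renewal, was lower on all 3 of its probes. Probe 1 read 2.0, 2.16 and 1.5 in the controls and 0.94, 1.0 and 0.21 in *Atg5*f/f;Vav, a 2.25-fold difference (log2 fold change -1.17, SE 0.26, adjusted p = 0.0206). Probe 2, which reads across the splice junction, gave 0.39, 0.31 and -0.09 against -0.62, -0.60 and -1.21, 2.01-fold lower (adjusted p = 0.0186). Probe 3, on the upstream transcript model, gave -0.92, -0.91 and -1.15 against -1.99, -2.63 and -3.39, 3.20-fold lower (adjusted p = 0.0168). The groups did not overlap on any of these probes, and the point estimates ran from -1.01 to -1.68 with intervals that overlapped one another.

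*Hoxa10*, the neighbour of *Hoxa9* and another regulator of progenitor growth, was lower on both of its probes. Probe 1 (chr6:52181437-52181496) read 1.55, 1.39 and 1.27 in the controls and 0.51, 0.45 and -0.66 in *Atg5*f/f;Vav (log2 fold change -1.31, SE 0.31, adjusted p = 0.0232). Probe 2 (chr6:52181922-52181981) read -0.37, -0.63 and -1.14 against -1.83, -1.46 and -2.87 (-1.34, SE 0.38, adjusted p = 0.0347, and 0.0521 under quantile normalisation). The groups were separate on both.

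*Hoxa5*, at the middle of the cluster, had 1 probe (chr6:52152049-52152108) and the smallest adjusted p of the 10 genes. It read -0.56, -0.51 and -0.58 in the controls and -1.42, -1.55 and -2.25 in *Atg5*f/f;Vav, 2.28-fold lower (log2 fold change -1.19, SE 0.22, adjusted p = 0.0164). The controls lay close together, and each *Atg5*f/f;Vav array lay well below them.

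*Hoxa3* is an anterior member of the cluster, best known for its role in the pharyngeal organs. Its bright probe 1 (chr6:52119087-52119146) read 0.73, 0.65 and 0.45 in the controls and -0.37, -0.56 and -1.68 in *Atg5*f/f;Vav, 2.79-fold lower (log2 fold change -1.48, SE 0.33, adjusted p = 0.0204). Probe 3 (chr6:52149150-52149208) was designed on another transcript model and lies upstream of the others. It read -2.63, -2.64 and -2.74 against -3.83, -3.44 and -4.78 (-1.35, SE 0.32, adjusted p = 0.0231). Under normexp background correction its log2 fold change was -0.60, and without control replicate 3 its adjusted p was 0.0523. It was not well above background on *Atg5*f/f;Vav replicate 3. Probe 2 (chr6:52119744-52119803) was above that mark in 2 controls and in 0 *Atg5*f/f;Vav samples, too few to be tested. It read -4.28, -3.88 and -5.35 against -5.31, -5.82 and -6.56, and control replicate 3 lay below *Atg5*f/f;Vav replicate 1, so the groups overlapped.

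*Hoxa7* did not pass. Its probe (chr6:52165626-52165685) read 3.59, 3.65 and 3.68 in the controls and 3.33, 3.30 and 2.50 in *Atg5*f/f;Vav. Every *Atg5*f/f;Vav array lay below every control, but replicate 3 lay 0.82 below the mean of the other two, and the log2 fold change of -0.60 (SE 0.23, 95% interval -1.14 to -0.05) had an adjusted p of 0.0815. Without that replicate it was -0.32 (adjusted p = 0.0559).

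Of the Hoxb genes, *Hoxb6* and *Hoxb5* were dim, and their *Atg5*f/f;Vav signals came close to the background. *Hoxb6* (chr11:96162563-96162622) read -3.99, -3.99 and -3.83 in the controls and -5.48, -5.03 and -6.52 in *Atg5*f/f;Vav, where no array was well above background. On this scale it was at least 1.59-fold lower, a bound that takes the mean of the controls over the dimmest signal marked well above background on each *Atg5*f/f;Vav array, or over the probe's own signal where that was higher. The fitted log2 fold change was -1.73 (SE 0.35, adjusted p = 0.0176), from a probe that was tested only because the controls detected it, and under quantile normalisation its adjusted p was 0.0525. Under normexp background correction, which adds an offset of 50 to every signal, the log2 fold change was -0.44, smaller than that bound. *Hoxb5* (chr11:96167130-96167189) read -3.09, -2.82 and -3.15 against -4.03, -3.90 and -6.42. Under the main setting its estimate was the lowest of the 10 genes, -1.76, but the test did not pass (SE 0.64, adjusted p = 0.0690). *Atg5*f/f;Vav replicate 3 was not well above background, so its distance below the other arrays has no exact size. The rank did not hold without that array, where *Hoxb6* gave -1.31. Without that replicate *Hoxb5* was lower by a log2 fold change of -0.94 with an adjusted p of 0.0132, and under normexp with all arrays it was lower by -0.55 (adjusted p = 0.00776).

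*Hoxb2*, an anterior member of the cluster, was lower on the probe of its own strand. The probe of that name on the opposite strand, which was not placed within the gene, was lower too. The probe on the gene's strand read -1.90, -1.93 and -2.09 in the controls and -2.79, -3.15 and -4.50 in *Atg5*f/f;Vav, 2.84-fold lower (log2 fold change -1.51, SE 0.41, adjusted p = 0.0321). The probe on the opposite strand read -2.85, -3.03 and -3.57 against -4.24, -4.23 and -5.60 (-1.54, SE 0.40, adjusted p = 0.0279). Both calls were lost under quantile normalisation (-1.27, adjusted p = 0.0582, on the gene's strand and -1.21, adjusted p = 0.0540, on the other), and under normexp the log2 fold changes were -0.86 and -0.60. With *Atg5*f/f;Vav replicate 3 left out, the probe on the gene's strand gave -0.995. Without control replicate 3 that probe lost its call (-1.56, adjusted p = 0.0681). On neither probe did the groups overlap, and on both *Atg5*f/f;Vav replicate 3 was not well above background.

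*Hoxb3* passed on 1 of its 3 probes. Probe 1, which reads spliced RNA, gave -2.26, -2.23 and -2.50 in the controls and -2.73, -2.73 and -2.65 in *Atg5*f/f;Vav, a 1.29-fold difference that just passed (log2 fold change -0.37, SE 0.12, adjusted p = 0.0476). Its log2 fold change was -0.24 under normexp and -0.14 (adjusted p = 0.324) under quantile normalisation. Probe 1 lost the call under 7 settings that keep all arrays, normexp and quantile normalisation among them, given in the closing section. It passed in only 1 of the 6 fits that each leave out 1 array (adjusted p from 0.0407 to 0.162). Probe 2, inside the skipped stretch, read -3.33, -3.67 and -3.69 against -3.89, -3.61 and -3.97 with overlapping groups (95% interval of the difference -0.62 to 0.11, adjusted p = 0.222), and under quantile normalisation its sign turned, to 0.062. Probe 3 read -3.20, -3.22 and -4.22 against -4.06, -3.96 and -4.69 and also overlapped (95% interval -1.46 to 0.08, adjusted p = 0.135). It passed with the replicate number as a block (-0.69, adjusted p = 0.0259) and without control replicate 3 (-1.03, adjusted p = 0.0371).

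*Hoxb4*, long studied for stem cell expansion, did not pass. Its probe (chr11:96182885-96182944) read 0.27, 0.25 and 0.25 in the controls and 0.09, -0.07 and -0.72 in *Atg5*f/f;Vav. The 3 *Atg5*f/f;Vav arrays lay below the 3 controls, by a log2 fold change of -0.49 (SE 0.21, 95% interval -0.99 to 0.01, adjusted p = 0.110). Leaving out *Atg5*f/f;Vav replicate 3 gave -0.24 (adjusted p = 0.125).

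**Figure D2:**
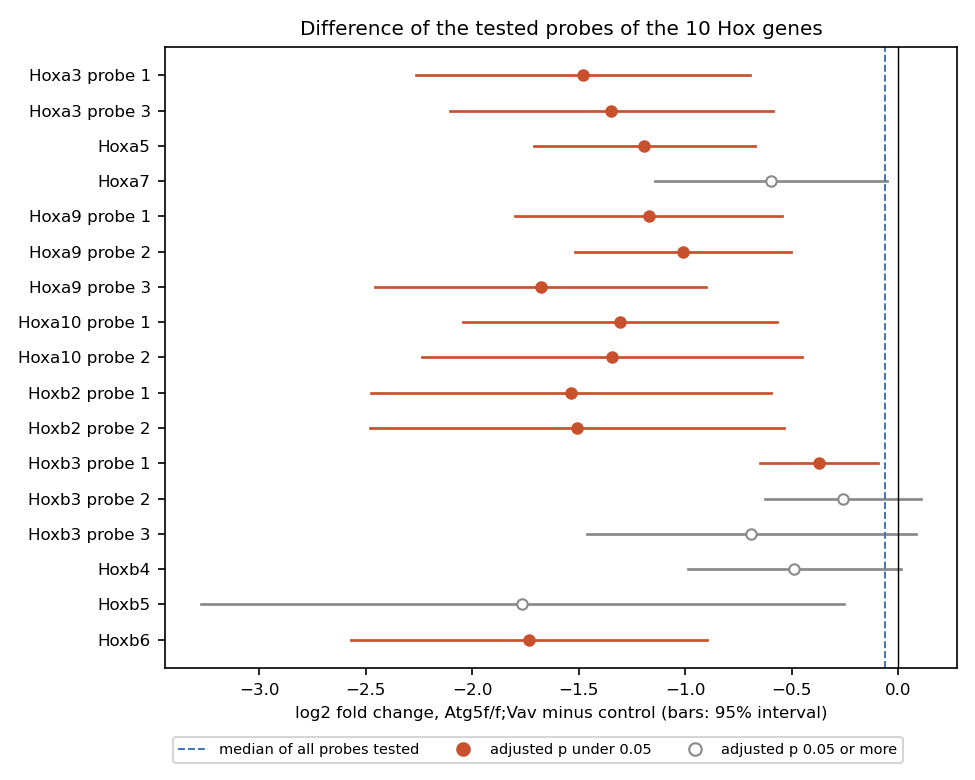
Log2 fold change of the 17 tested probes, *Atg5*f/f;Vav minus control, with 95% intervals from the limma fit, filled orange where the adjusted p was under 0.05, and a dashed line at the median of all probes tested (-0.06). The 12 probes that passed range from -0.37 to -1.73 and the 5 that did not from -0.26 to -1.76.

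By cluster, 8 of the 9 Hoxa probes tested were lower and 4 of the 8 Hoxb probes tested, against 17.1% of all probes, with median log2 fold changes of -1.32 and -1.10. Leaving aside *Hoxb6*, which only the controls detected, 3 of 7 Hoxb probes were lower. Whether the clusters differed was not tested.

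The other Hox genes of the array were read the same way. Of the 28 further Hox genes described here 3 could be tested, all of the Hoxa cluster. All 3 were lower, where 15.3% of all genes tested were lower and 18.7% higher. *Hoxa2* was lower by a log2 fold change of -1.29 (adjusted p = 0.0304), *Hoxa4* of -0.85 (adjusted p = 0.0227) and *Hoxa6* of -1.58 (adjusted p = 0.0211). *Hoxa6* read -0.79, -0.60 and -1.19 in the controls and -2.15, -1.90 and -3.27 in *Atg5*f/f;Vav. *Hoxa11* and *Hoxa13* of the Hoxa cluster, and the other 5 Hoxb genes, *Hoxb1*, *Hoxb7*, *Hoxb8*, *Hoxb9* and *Hoxb13*, were not well above background on any array. The same held for 8 of 9 Hoxc and 8 of 9 Hoxd genes, and the last gene of each of these clusters was detected on too few arrays to be tested.

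**Figure D3:**
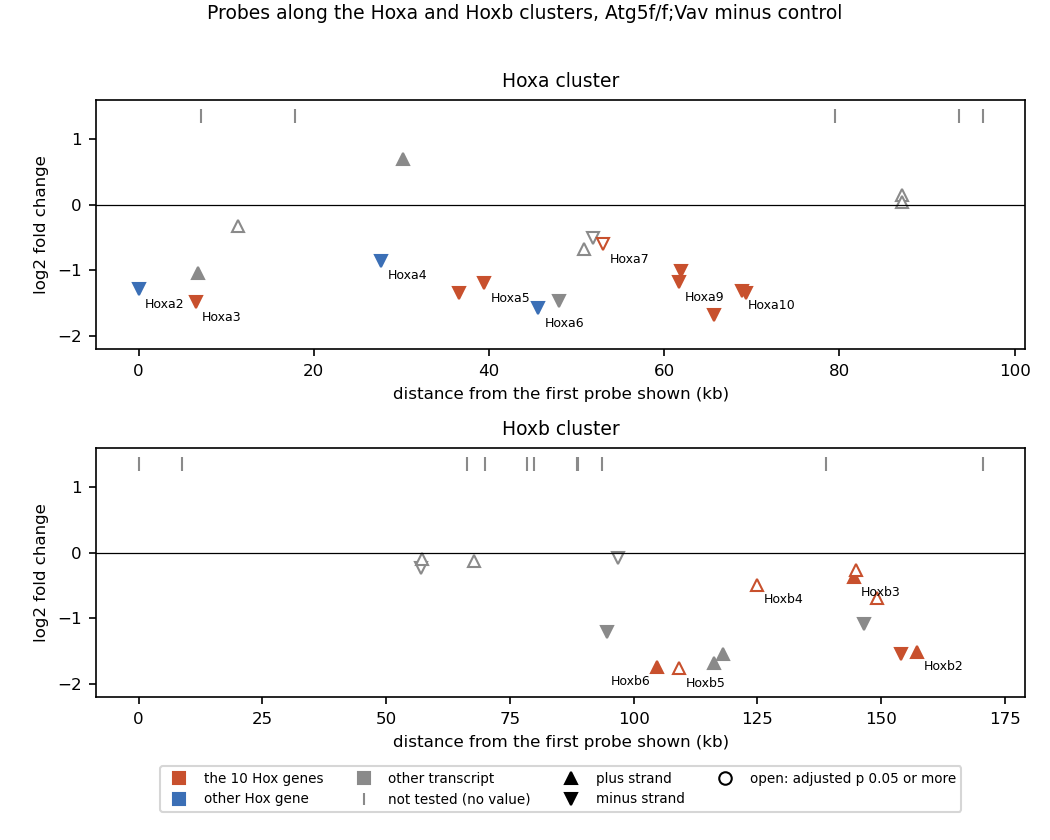
Log2 fold change, *Atg5*f/f;Vav minus control, of each tested probe against its distance in kb from the first probe shown of the Hoxa (top) and Hoxb (bottom) cluster, with triangles up for plus-strand and down for minus-strand probes, filled where the adjusted p was under 0.05. Ticks at the top mark probes too dim to test, and 1 filled triangle of the Hoxa cluster lies above 0.

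The clusters also hold noncoding transcripts, many of them antisense. From the probe of *Hoxa2* to that of *Hoxa13*, the Hoxa cluster (chr6:52112595-52209039) held 25 probes, of which 20 were tested, 13 lower and 1 higher. From *Hoxb13* to *Hoxb1*, the Hoxb cluster (chr11:96057854-96228510) held 27, of which 16 were tested, 8 lower and 0 higher. Among the 16 tested probes that belonged to no Hox gene, 6 were lower and 1 higher. Over all probes tested, 17.1% were lower and 17.3% higher. Without the 2 Hoxb probes that only the controls detected, *Hoxb6* and an unnamed transcript, 6 of 14 probes were lower in the Hoxb cluster and 5 of 15 among those of no Hox gene, against 15.6% of all probes detected in both groups.

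In the Hoxa cluster *Hoxaas2*, read from the plus strand across *Hoxa3*, was lower by a log2 fold change of -1.04 (adjusted p = 0.0255). The transcript AK053996, annotated to *Hoxaas3* but read from the minus strand that the Hoxa genes use, read 0.67, 0.53 and 0.27 in the controls and -0.59, -0.70 and -1.62 in *Atg5*f/f;Vav (-1.46, adjusted p = 0.0167). The plus-strand probe of *Hoxaas3* did not pass (-0.68, adjusted p = 0.0599). *Mira*, a transcript beside *Hoxa7*, read 2.85, 2.84 and 2.86 against 2.67, 2.51 and 1.87 (-0.50, adjusted p = 0.101), the same order of arrays within *Atg5*f/f;Vav as *Hoxa7* and likewise short of the threshold. *Gm15050* (-0.32) and the 2 probes of *Hoxa11os* (0.16 and 0.04) did not pass. AK039882, a plus-strand transcript between *Hoxa4* and *Hoxa5*, went the other way, with -3.01, -2.61 and -2.77 in the controls and -2.18, -2.26 and -1.86 in *Atg5*f/f;Vav (0.70, SE 0.16, adjusted p = 0.0213).

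In the Hoxb cluster an unnamed plus-strand transcript between *Hoxb5* and *Hoxb4*, neither of which passed, was well above background on all arrays (chr11:96175970-96176029). It read 0.15, 0.27 and -0.16 in the controls and -1.13, -1.12 and -2.14 in *Atg5*f/f;Vav (-1.55, adjusted p = 0.0166). Another nearby (chr11:96174180-96174239) read -4.27, -4.27 and -4.28 against -5.75, -5.71 and -6.39, at least 1.26-fold lower. Like *Hoxb6*, it was tested only because the controls detected it, with 0 *Atg5*f/f;Vav arrays well above background (log2 fold change -1.68, adjusted p = 0.00899). BE847805, on the minus strand between *Hoxb3* probes 2 and 3, was lower by a log2 fold change of -1.08 (adjusted p = 0.0376). It read -0.03, 0 and -0.1 in the controls and -0.68, -0.78 and -1.89 in *Atg5*f/f;Vav, with replicate 3 the lowest. *Hoxb5os* gave -1.20 (adjusted p = 0.0282) on the probe at chr11:96152394-96152453 and -0.07 (adjusted p = 0.802) on the probe at chr11:96154743-96154802, with overlapping 95% intervals (-1.94 to -0.46 and -0.58 to 0.43). The 3 tested probes of unnamed loci between *Hoxb13* and *Hoxb9* lay at -0.23, -0.10 and -0.12 and did not pass.

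Partners and regulators of Hox genes were read against the same background, 15.3% of all genes tested lower and 18.7% higher. Of 7 TALE cofactor genes tested, which encode the proteins that bind DNA together with HOX factors, 1 was lower, a share near that of all genes, and 0 higher, with a median log2 fold change of -0.11. That gene was *Meis1*, which read 4.38, 4.44 and 4.48 in the controls and 4.04, 3.86 and 3.07 in *Atg5*f/f;Vav (-0.78, SE 0.25, adjusted p = 0.0484). Of 15 genes of the MLL and DOT1L complexes, which maintain Hox transcription, 4 were higher and 4 lower with a median of 0.06. The lower ones were *Mllt3* (-0.92), *Ash1l* (-0.59), *Aff4* (-0.59) and *Kmt2a* (-0.36), which encodes MLL1 itself, and the higher ones *Dpy30* (0.63), *Ash2l* (0.59), *Mllt1* (0.46) and *Kat7* (0.41).

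Polycomb genes encode the repressors of Hox clusters, with the demethylases that oppose them kept in the same list. Of 19 tested, 3 were lower, *Cbx8* (-1.03), *Cbx7* (-0.85) and the demethylase *Kdm6b* (-0.48), and 2 higher, *Phc2* (0.51) and *Suz12* (0.38), with a median of -0.23, so that the share lower was near that of all genes. Caudal factors and retinoid receptors are upstream activators of Hox genes. *Cdx1*, *Cdx2* and *Cdx4* were not well above background on any array, and of 6 receptor genes tested 2 were lower, *Rarb* (at least 1.6-fold lower, detected on the 3 controls and on 0 *Atg5*f/f;Vav arrays, so tested through the controls alone) and *Rarg* (-0.21, -0.07 and -0.12 against -0.82, -1.01 and -1.83, adjusted p = 0.0228).

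Genes that HOXA9 and MEIS1 are known to bind or regulate also split. Of 11 tested, 3 were higher and 1 lower, against 18.7% and 15.3% of all genes tested, with a median log2 fold change of 0.01. *Trib2*, a pseudokinase linked to leukaemia, read -4.25, -3.97 and -3.59 in the controls and -1.75, -0.64 and -0.47 in *Atg5*f/f;Vav (2.98, adjusted p = 0.00922). The cell cycle kinase *Cdk6* (0.96, adjusted p = 0.0179) and the survival gene *Bcl2* (0.67, adjusted p = 0.0333) were higher as well. *Erg*, a stem cell transcription factor, was lower (-0.73, adjusted p = 0.0453). It read 2.63, 2.71 and 2.67 in the controls and 2.09, 2.31 and 1.41 in *Atg5*f/f;Vav, with replicate 3 the lowest.

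**Figure D4:**
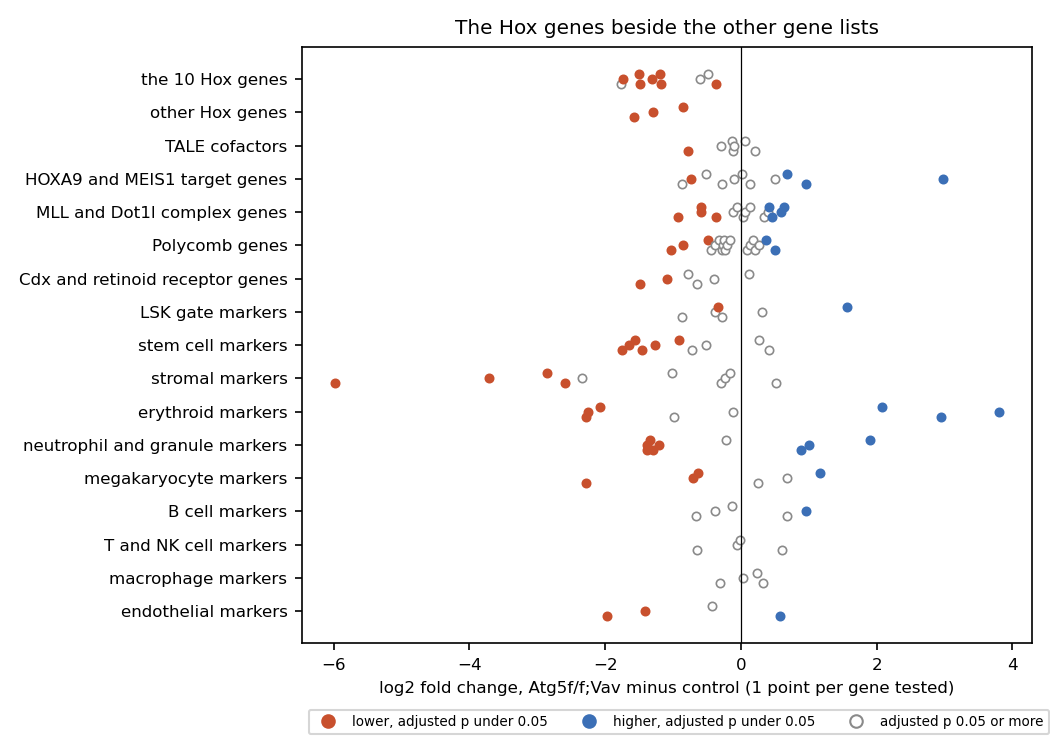
Log2 fold change, *Atg5*f/f;Vav minus control, of each tested gene of the 10 Hox genes and of 16 other lists, in orange where lower and blue where higher at an adjusted p under 0.05, and open where not. The lists that lie mostly to the left of 0 include the Hox, stem cell, stromal and retinoid receptor lists. The erythroid and granule lists hold genes that passed on both sides.

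Markers of the cells in the gate moved beside the Hox genes, and their part in the Hox result was not tested. Of 10 stem cell markers tested 6 were lower and 0 higher, against 15.3% and 18.7% of all genes tested, with a median of -1.09. The estimates of 8 lay below 0, while *Slamf1* (0.41) and *Gata2* (0.26) lay above it and did not pass. The summed level of the 10 was 42.6, 39.0 and 37.5 in the controls against 23.8, 24.8 and 14.2 in *Atg5*f/f;Vav (signal as a multiple of the 75th percentile). *Hlf*, which led the sum, read 3.74, 3.71 and 3.46 against 2.36, 2.42 and 1.17 (-1.65), and *Mecom* (-1.75) and *Procr* (-1.56) were lower too. As for the Hox genes, *Atg5*f/f;Vav replicate 3 was the lowest array for all 3 of them. Over the 10 Hox genes the same sum was 23.1, 23.8 and 21.9 against 16.0, 15.5 and 8.79, led by *Hoxa7*.

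Erythroid and granule genes changed in both directions, where 15.3% of all genes tested were lower and 18.7% higher. Of 8 erythroid markers 3 were higher, *Car1* (3.80), *Klf1* (2.95) and *Epor* (2.08), which early erythroid progenitors use, and 3 lower, *Slc4a1* (-2.29), *Hba-a1* (-2.26) and *Alas2* (-2.07), which mark later stages. *Klf1* was highest on *Atg5*f/f;Vav replicate 3, at 1.93 against -0.21 and 0.85 on the other two. The summed erythroid level, led by *Hba-a1*, was 494, 474 and 219 in the controls against 74.3, 104 and 114. Of 9 neutrophil and granule markers 3 were higher, *Ctsg* (1.91), *Mpo* (1.0) and *Prtn3* (0.89), and 5 lower, led by *S100a8* (-1.38), *Ltf* (-1.38) and *S100a9* (-1.34). Their sum, led by *Mpo*, was 234, 181 and 299 in the controls against 303, 244 and 297.

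Stromal transcripts differed among the controls. *Col1a1* read -4.14 on control replicate 1 but 3.23 and 2.95 on replicates 2 and 3, and -5.23, -5.16 and -5.49 in *Atg5*f/f;Vav. Of 10 stromal markers tested 4 were lower (*Col1a1*, *Col1a2*, *Postn* and *Sparc*) and 0 higher, against 15.3% and 18.7% of all genes tested. *Col3a1* and *Pdgfra* were not well above background on any array, and the sum, led by *Lepr*, was 10.9, 41.6 and 31.4 against 7.22, 10.1 and 10. On control replicates 2 and 3, however, the probes of *Col1a2* (3.47 and 2.90), *Sparc* (3.36 and 3.15) and *Col1a1* were brighter than that of *Lepr* (3.12 and 2.44). *Col1a1* was tested through the controls alone. The part of these transcripts in the Hox result was not tested.

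The other lists were short, and their genes lay on both sides of 0. Over all genes tested, 15.3% were lower and 18.7% higher. Of 6 LSK gate markers *Ly6a* was higher and *Ptprc* lower. Of 6 megakaryocyte markers 1 was higher, *Itga2b* (1.17), and 3 lower, *Ppbp* (at least 1.22-fold lower, tested through the controls alone), *Vwf* (-0.70) and *Gp9* (-0.63), with a sum of 9.07, 7.95 and 7.56 against 6.80, 6.61 and 6.40. Of 4 endothelial markers tested *Plvap* was higher (0.58), *Ptprb* (at least 1.58-fold lower, tested through the controls alone) and *Kdr* (-1.42) were lower, and *Cdh5*, the defining one, and *Flt4* were not well above background on any array. The endothelial sum, led by *Plvap*, was 0.805, 0.654 and 0.634 against 0.674, 0.681 and 0.829. Among 5 B cell markers *Cd79a* was higher (0.95). Its probe was well above background on 1 control and 3 *Atg5*f/f;Vav arrays, so it was tested mostly through the latter and its difference has no exact size. The B cell sum, led by *Cd79b*, was 9.26, 8.20 and 9.65 against 10.96, 8.14 and 6.99. In turn, 0 of 4 T and NK cell and 0 of 4 macrophage markers passed in either direction (limma). The macrophage sum, led by *Csf1r*, was 4.68, 5.72 and 6.24 against 6.60, 6.52 and 6.49, and *Mrc1* was not well above background on any array. The T and NK cell sum, led by *Nkg7*, was 7.21, 7.15 and 10.7 against 11.3, 10.9 and 10.2, and *Cd3g*, *Cd8a* and *Ncr1* were not well above background on any array.

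The pattern of the Hox genes over the 6 arrays was taken as the mean of the 7 genes well above background on all arrays, each centred on its own mean. It read 0.53, 0.53 and 0.35 in the controls and -0.18, -0.25 and -0.98 in *Atg5*f/f;Vav. Of 18361 other genes well above background on all arrays, 1501 had a Pearson r over 0.95 with this profile, which is described over 6 arrays that differ mainly by group. The 5 most alike were an unnamed locus on chromosome 16, AK054031, *Dcaf12l1*, *Cd200r1* and *Lrrcc1*, with r from 0.9990 to 0.9993. *Cd200r1*, an inhibitory receptor of myeloid cells, read -1.17, -1.22 and -1.47 in the controls and -2.36, -2.43 and -3.50 in *Atg5*f/f;Vav (log2 fold change -1.48, adjusted p = 0.0181). *Lrrcc1*, a centrosomal gene, kept the order but moved by only -0.35 (adjusted p = 0.0639).

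The Hox difference was recomputed under each way of processing the arrays. The median over the 10 genes ran from -0.72 with normexp background correction to -1.45 with the percentile taken over detected probes alone, a scaling that moved the median of all probes from -0.06 to -0.27. Relative to the median of all probes, the Hox median was -1.19 under both the main setting and that scaling.

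**Figure D5:**
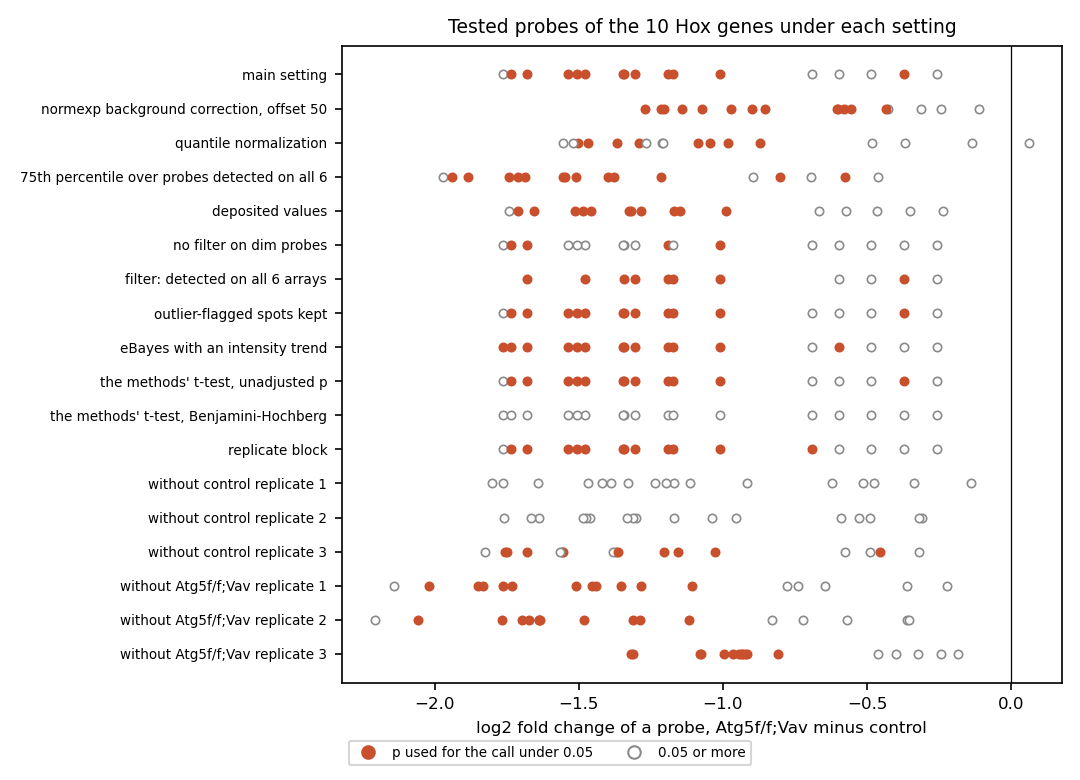
Log2 fold change of each tested Hox probe (1 point per probe), *Atg5*f/f;Vav minus control, under the main setting and each alternative, filled where the p used for the call was under 0.05. All points but 1, *Hoxb3* probe 2 under quantile normalisation, lie below 0, and none is filled without control replicate 1, without control replicate 2 or for the t-test after Benjamini-Hochberg adjustment.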

How the data were processed

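Gene expression in 6 samples of LSK cells was measured on single-colour Agilent arrays. The authors labelled total RNA with a low-input Cy3 kit and read the arrays with Agilent Feature Extraction 12.0.3.1, per the labels. The deposited files hold the background-corrected intensity of each spot, with flags and mm9 probe positions. A deposited value table holds the signal of each spot divided by 1 constant per array, taken as an alternative. No file gives depth, and the number of arrays limits the precision.

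Control probes and outlier-flagged spots were left out, spots of 1 probe were averaged, and log2 intensity minus the 75th percentile of each array was analysed. Probes that the flags put well above background on 3 or more of the 6 arrays were tested. The groups were compared with lmFit and eBayes of limma 3.58.1 (R 4.3.3), fitted on all 32074 probes, checked on simulated data, with Benjamini-Hochberg adjustment at 0.05. The design took the 3 samples of each group, as labelled. With 3 arrays against 3, an exact permutation test cannot go below p = 0.1, so single values carry no test of their own. Each gene was read from its brightest tested probe on its own strand, which was taken from probes designed on RefSeq records.

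The Hox genes and all other lists were chosen with earlier results of these data known. Of each list, at most 3 genes each way with the largest change past the threshold are named, with all Hox genes and cluster probes tested and the 5 genes most alike in pattern. Beyond the Hox genes named and the probe sequences printed, 1 further Hox gene and the sequence of 1 further probe are not reported here. *Kmt2a*, *Kat7*, *Sparc*, *Kit* and the values of genes that missed the threshold were added after their values were seen. No mm9 annotation of exons was used here, so exon and untranslated positions are not assigned beyond what a probe's span or sequence shows. Alternatives were the background correction, scaling, the deposited table, filters, outlier spots, an intensity trend, Student's t-test named in the study's methods, a replicate block and each array left out. The methods name that t-test for group differences in general, and gene set enrichment analysis for the arrays. Replicate numbers of the 2 groups were not taken as pairs in the main fit, and the number is also the column on the slide. The deviations of same-numbered arrays correlated at -0.065, 0.189 and 0.111, and those of differently numbered arrays at -0.301 to 0.132. With 3 arrays in each group, these values cannot decide whether the numbers mark pairs.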

Additional observations from a re-analysis of the deposited data

How the results depend on the processing

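Of 283 results of single Hox probes under an alternative, 215 kept their direction and side of the threshold, 58 fell short of it, 9 newly passed and 1 reversed. The reversal was *Hoxb3* probe 2, which was not called, at 0.062 under quantile normalisation. *Hoxb3* probe 1 lost its call under normexp, quantile normalisation, the deposited values, no filter, the intensity trend, the Benjamini-Hochberg t-test and the replicate block, and with each array left out but 1. Quantile normalisation also took the calls of both *Hoxb2* probes, *Hoxb6* and *Hoxa10* probe 2. *Hoxa7* passed under normexp, quantile normalisation, the detected-probe percentile and the trend, and *Hoxb5* under normexp and the trend. Under normexp the log2 fold changes of probes near background shrank by over 1.5 times, among them *Hoxb6* (-0.44), *Hoxb5* (-0.55), both *Hoxb2* probes, *Hoxa3* probe 3 (-0.60) and all 3 *Hoxb3* probes (-0.24, -0.11 and -0.31).

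With no filter on dim probes 4538 of 56605 probes passed, with 4 Hox probes and 2 Hox genes lower against 3.91% of all probes (*Hoxa3* probe 2 had an adjusted p of 0.101). The methods' t-test at an unadjusted p of 0.05 gave 12 Hox probes and 7 Hox genes lower, against 19.6% of all probes, and after Benjamini-Hochberg 0 of all probes, 0 Hox probes and 0 Hox genes. Leaving out 1 array gave 251 to 10304 probes over all, 0 to 12 Hox probes lower, 0 Hox probes higher and 0 to 7 Hox genes lower. Of all probes tested, 0.299% to 16.7% were then lower. The counts of 0 lower came without control replicate 1 or 2, and in each of these fits 2 arrays remain in 1 group. Other settings gave 8 to 13 Hox probes lower, against 11.6% (quantile normalisation) to 31.5% (detected-probe percentile) of all probes tested. The 8 were out of 17 tested under quantile normalisation and out of 11 under the filter on all 6 arrays. Hox genes lower numbered 5 to 8 under these settings, and 6 with all probes of a gene averaged. Scaling to detected probes moved the share of lower calls among all calls from 49.7% to 75%. The share of all probes tested that were lower went from 17.1% to 31.5%. With the replicate block, 12 Hox probes and 6 Hox genes were lower, against 15.3% of all probes tested. In that fit 10173 probes passed in either direction. *Hoxb3* probe 3 passed with the block, as it did without control replicate 3. Slide and scan could not serve as blocks, since all arrays share 1 of each. Background limits *Hoxb6* and *Hoxa3* probe 2 on all *Atg5*f/f;Vav arrays, and *Hoxb5*, both *Hoxb2* probes, *Hoxa3* probe 3 and *Hoxb3* probe 3 on 1 of the 3.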
